A study of Drosophila melanogaster with 6 samples.

Results

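Insect surface lipids and membrane lipids depend on a small set of enzymes that reshape fatty acids after the chain has been made. The 8 genes described here encode desaturases (Desat1, Desat2), long-chain fatty acid elongases (Elo68alpha, Elo68beta, eloF, bond, Baldspot) and the oenocyte cytochrome P450 that makes hydrocarbons (Cyp4g1). They were taken by name, each symbol being matched through the deposited comparison table to its FlyBase identifier in the count files, and all 8 of 8 were found among the 17737 genes counted. RNA was sequenced from whole virgin w1118 males that had developed on cornmeal food. As adults they were kept for 20 days at 25°C on unmodified holidic food (HF), a chemically defined diet, or on the same food enriched with glucose at 50 g/L (GSF). Each diet had 3 libraries and each library pooled 5 whole flies, so both groups share 1 strain, 1 sex and 1 age, and no tissue was separated from another.

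Desaturases introduce a double bond into saturated acyl-CoA chains, drawing electrons through cytochrome b5. Elongases catalyse the first step of the cycle that lengthens acyl chains in the endoplasmic reticulum, after which a ketoacyl reductase, a dehydratase and an enoyl reductase complete each round. In oenocytes, cells that lie under the abdominal cuticle, very long acyl chains are reduced to aldehydes and CYP4G1 converts these to hydrocarbons, which waterproof the cuticle and serve as contact pheromones. Several of these enzymes are known for sex-specific roles: eloF and the desaturase gene Fad2, which is no member, act in female diene production, while Elo68alpha and bond are known from male reproductive tissue and male pheromones.

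Library totals lay between 51826530 and 66493536 counts, and 3 counts in a library corresponded to between 0.0451 and 0.0579 CPM (counts scaled to a common library size), a floor that covers counting error only. The share of counts from ribosomal RNA genes was 17.88% to 18.55% in the HF libraries and 20.64% to 24.55% in the GSF libraries. CPM values are given after scaling by edgeR's TMM method. Of all genes, 13373 reached 1 CPM in at least 3 libraries and were tested with edgeR's quasi-likelihood test, and 6 of the 8 members were among them (Desat2 and Elo68beta were not). A gene was called at a p under 0.01 with a Benjamini-Hochberg adjusted p under 0.05. Nothing in the labels says whether the libraries of a diet came from separate vials, so p-values measure the spread between these libraries.

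The 8 genes spanned almost the whole range of transcript levels in these males. Per kilobase of exon, Cyp4g1 had a mean of 4258 RPKM over the 6 libraries and was placed 12 in order among the tested genes, and Desat1 with 824 RPKM was placed 77. Baldspot (64.0 RPKM), bond (55.8 RPKM) and Elo68alpha (40.9 RPKM) formed a middle group, and eloF (1.39 RPKM), Elo68beta (0.910 RPKM) and Desat2 (0.512 RPKM) lay near the bottom. The libraries of neighbours in this order did not overlap, except for eloF and Elo68beta, whose ranges of 0.880 to 2.48 RPKM and 0.743 to 1.16 RPKM did. The order of Baldspot and bond depended on the length used, since with the longest transcript in place of all exons they had 65.4 and 66.0 RPKM.

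**Figure D1:**
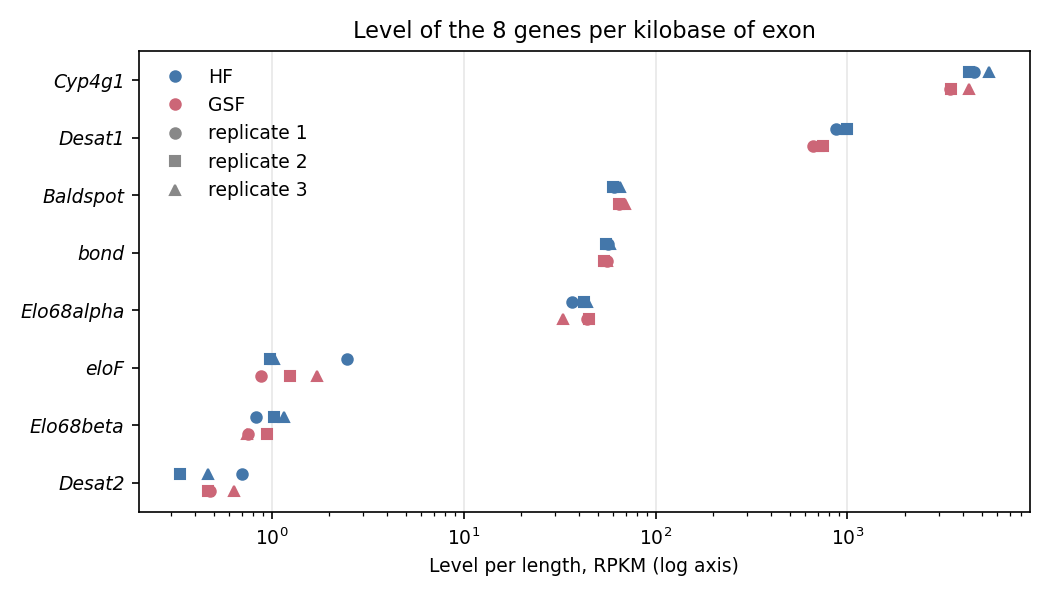
Level of each gene in RPKM (CPM per kilobase of exon, log axis), with a row for each gene and a point for each library, coloured by diet and shaped by replicate number. Cyp4g1 and Desat1 stand well above the other members, with means of 4258 and 824 RPKM, and eloF, Elo68beta and Desat2 lie between 0.331 and 2.48 RPKM.

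Desat1 was the member called as changed, and it fell in GSF-fed flies. Desat1 (FBgn0086687, chromosome 3R of BDGP6.54, 12439600 to 12447616, plus strand, 5 annotated transcripts) encodes the main acyl-CoA desaturase of the fly, which acts in many tissues and also supplies unsaturated hydrocarbons. It had 2162, 2469 and 2418 CPM in HF replicates 1 to 3 and 1648, 1865 and 1745 CPM in GSF replicates 1 to 3. Every GSF library lay below every HF library, and replicate 1 was the lowest library on both diets. The means were 2350 ± 165 CPM (SD, n = 3) on HF and 1753 ± 109 CPM (SD, n = 3) on GSF, so that GSF stood at 0.746 of the HF level. The log2 fold change was -0.42 (standard error 0.08, 95% interval -0.62 to -0.23, adjusted p = 0.0308). The direction was the same with each library left out in turn (log2 fold changes from -0.48 to -0.37), but the call was lost in each of these fits, with adjusted p between 0.0578 and 0.123. In the fits on all 6 libraries the adjusted p lay between 0.0003662 (DESeq2) and 0.0442. Counts are per gene, so its transcripts were not separated.

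Desat2, the other desaturase among the members, was barely detected. It lies 1742 bp upstream of Desat1 on the same strand (FBgn0043043, chromosome 3R, 12436248 to 12437857) and is known as the source of the female hydrocarbon pattern of African strains, being inactive in most other strains. It had 49, 26 and 38 raw counts in the HF libraries and 41, 42 and 51 in the GSF libraries. The CPM values ran from 0.449 to 0.952 on HF and from 0.628 to 0.861 on GSF, and the diets overlapped. Without the filter on low counts (17287 genes), the log2 fold change was 0.08 with a 95% interval from -0.59 to 0.75. Differences within that interval, in either direction, are compatible with these 6 libraries. Desat2 shares 41 bp of exon with CG17207 (5.31 to 6.58 CPM on HF and 4.68 to 6.18 CPM on GSF) and with CG46427 (not analysed here), both on the opposite strand, and whether the counting used strand is not given in the sources used here.

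Cyp4g1, the P450 gene of the last step to hydrocarbons, was the most abundant member. By CPM it was lower in every GSF library, but it was not called. Cyp4g1 (FBgn0010019, chromosome X, 467057 to 469335, minus strand) took 0.991% to 1.239% of the counts in HF libraries and 0.792% to 0.959% in GSF libraries. Of the counts outside ribosomal RNA genes, it took 1.263%, 1.216% and 1.521% in HF replicates 1 to 3. In GSF replicates 1 to 3 that share was 1.003%, 1.004% and 1.271%, so GSF replicate 3 lay above HF replicates 1 and 2. The CPM values of Cyp4g1 were 10452, 9846 and 12495 in HF replicates 1 to 3 and 7773, 7883 and 9773 in GSF replicates 1 to 3. By CPM, every GSF library lay below every HF library, but GSF replicate 3 came close to HF replicate 2. The means were 10931 ± 1388 CPM (SD, n = 3) and 8477 ± 1124 CPM (SD, n = 3), a log2 fold change of -0.37 (standard error 0.13, 95% interval -0.66 to -0.07), which was not called (adjusted p = 0.157). Replicate 3 was the highest library on both diets, by 0.20 and 0.21 on the log2 scale above the mean of its diet. A fit that took replicate number as a block gave -0.37 too, with a standard error of 0.07 and an adjusted p of 0.0210, and called the gene. With ribosomal RNA genes left out of the libraries it was -0.37 (adjusted p = 0.156), and over all alternatives the adjusted p ran from 0.0210 to 0.385.

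Among the members, the 2 best expressed elongase genes differed little between the diets. Baldspot, which encodes the fly counterpart of the mammalian elongase ELOVL6 (FBgn0260960, chromosome 3L, 16648442 to 16661615, minus strand), had 173, 172 and 185 CPM on HF and 183, 183 and 196 CPM on GSF. Its libraries overlapped, and replicate 3 was the highest on each diet. Its log2 fold change was 0.09 (standard error 0.07, adjusted p = 0.551), with a 95% interval from -0.07 to 0.25. The elongase gene bond (FBgn0260942, chromosome 3R, 22550680 to 22556494, plus strand) is needed for cytokinesis in spermatocytes and for a male pheromone. It had 109, 106 and 111 CPM on HF and 108, 103 and 107 CPM on GSF, a narrow spread. Its log2 fold change was -0.03 (standard error 0.06, adjusted p = 0.846) and the 95% interval ran from -0.17 to 0.10. It shares 184 bp of exon with an antisense RNA gene, asRNA:CR44062, which had 12.3 RPKM against 55.8 RPKM for bond.

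Elo68alpha and Elo68beta are neighbours on chromosome 3L but were expressed at very different levels. Elo68alpha (FBgn0052072, 11101875 to 11103030, minus strand) lies 176 bp upstream of Elo68beta (FBgn0036128, 11100675 to 11101698). Elo68alpha is known for a male-specific role in elongating the unsaturated chains of the ejaculatory bulb. It had 34.3, 39.8 and 41.2 CPM on HF and 41.2, 42.2 and 30.9 CPM on GSF. The diets overlapped, and GSF replicate 3 was the lowest of the 6 libraries. The log2 fold change was -0.01 (standard error 0.13, 95% interval -0.32 to 0.29, adjusted p = 0.978), and it was 0.13 without GSF replicate 3. Elo68beta had 36, 50 and 59 raw counts on HF and 40, 53 and 37 on GSF, or 0.847 ± 0.139 CPM (SD, n = 3) and 0.683 ± 0.0954 CPM (SD, n = 3). Without the filter its log2 fold change was -0.31 (standard error 0.23, 95% interval -0.83 to 0.20, adjusted p = 0.581). Where the copies are alike in sequence, the counting could have shared reads between them, and their sequences were not compared here.

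**Figure D2:**
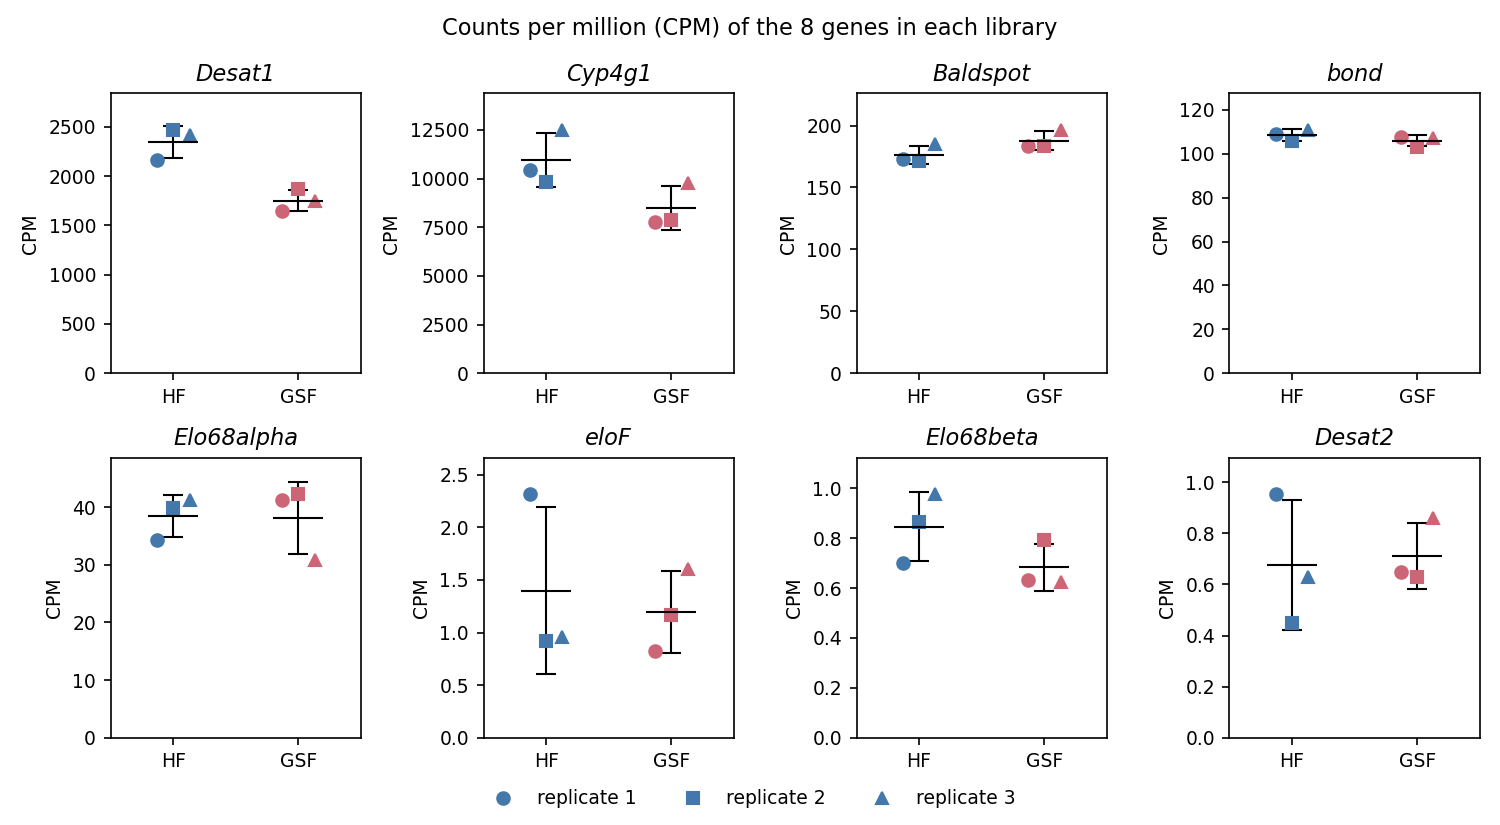
CPM of each gene by diet, in a panel with its own scale from 0. Points are libraries shaped by replicate number, and the black lines are the mean and SD of 3 libraries. The GSF libraries lie below all HF libraries for Desat1 and Cyp4g1, and the diets overlap in the other 6 panels.

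Of the female-biased genes, Fad2 was at or near 0 outside 1 library, and eloF was low, reaching 1 CPM in 3 of the 6 libraries. eloF (FBgn0037762, chromosome 3R, 9814161 to 9815158, plus strand) elongates the long dienes of females. It had 119, 53 and 58 raw counts in HF replicates 1 to 3 and 52, 78 and 95 in GSF replicates 1 to 3, so that HF replicate 1 was the highest library. The log2 fold change was -0.21 with a standard error of 0.41 and a 95% interval from -1.16 to 0.73, and it became 0.35 without HF replicate 1. Fad2 (also called desatF), the desaturase gene of female dienes, showed the same library more sharply. It had 73 counts in HF replicate 1, 1 count in GSF replicate 2 and 0 in the other 4 libraries. Of the yolk protein genes, which mark females, Yp1 and Yp2 were highest in HF replicate 1 by CPM, and Yp3 was not. Yp1 had 0.564 CPM there and 0.529 CPM in HF replicate 3. For Yp2 the values were 0.505 CPM there and 0.404 CPM in GSF replicate 2. Yp3 had 9.16 CPM there and 9.99 CPM in HF replicate 2. Raw counts, not scaled to library size, follow. Yp1 had 29, 6 and 32 counts on HF and 6, 32 and 23 on GSF, and Yp3 had 471, 578 and 508 on HF and 443, 488 and 401 on GSF. Yp2 had 26 counts in HF replicate 1 and 27 in GSF replicate 2, with between 9 and 13 in the other libraries. The eggshell genes Vm26Aa and Vm34Ca had at most 3 counts in any library, and 0 in 1 and 3 libraries. The 5 female markers found summed to between 9.16 and 10.4 CPM on HF and between 7.28 and 8.20 CPM on GSF, and Yp3 was called lower with the replicate block (adjusted p = 0.0222, and 0.0616 without it). What set HF replicate 1 apart in eloF and Fad2 was not tested. Without that library Desat1 had a log2 fold change of -0.48 (adjusted p = 0.0578) and Cyp4g1 one of -0.40 (adjusted p = 0.267).

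**Figure D3:**
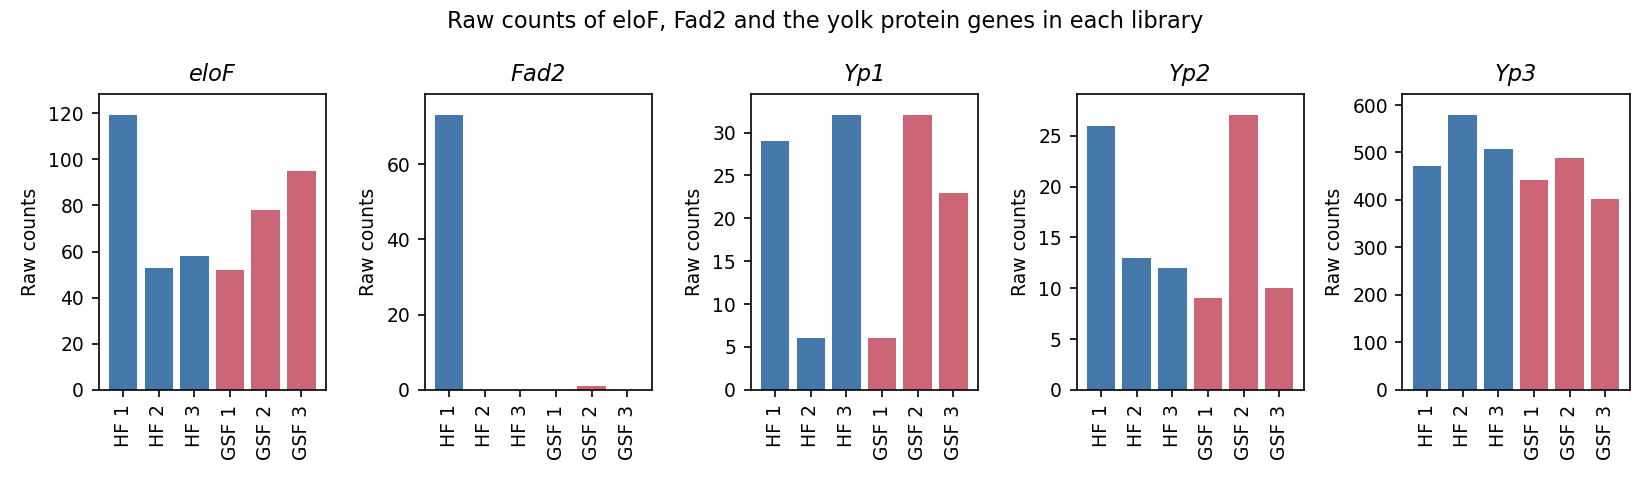
Raw counts of eloF, Fad2 and the yolk protein genes Yp1, Yp2 and Yp3 in each library, with bars coloured by diet and each panel on its own scale from 0. HF replicate 1 holds 73 of the Fad2 counts and the most eloF counts (119). Its Yp1, Yp2 and Yp3 counts, not scaled to library size, lie within the range of the other libraries.

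Over the 6 members tested, 1 was lower and 0 were higher past the threshold, against 3.14% lower and 2.0% higher among all genes tested. At an unadjusted p under 0.05, 2 members were lower and 0 higher, where 9.90% and 9.77% of all genes were. The libraries of GSF lay below those of HF in 2 members and above them in 0, and among all genes in 12.9% and 12.3%. With the replicate number as a block, 2 were lower and 0 higher, against 6.52% and 6.80% of all genes. The median log2 fold change was -0.12 over the 6 members and 0.01 over all genes tested. A count of 1 or 2 of 6 genes is a description of those genes.

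Ratios of CPM within a library put the members side by side without the scaling between libraries. They were chosen after the values were seen, so their p-values are a description, and adjusting over the 8 does not cover that choice. The 8 ratios computed were compared between the diets with a two-sided exact permutation test. With 3 libraries against 3 that test cannot give a p below 0.1. The ratio of Cyp4g1 to Desat1 was 4.83, 3.99 and 5.17 on HF and 4.72, 4.23 and 5.60 on GSF, so the diets overlapped (exact p = 0.8, 0.914 adjusted over the 8). The ratio of Desat1 to Baldspot was 12.5, 14.4 and 13.1 on HF and 8.99, 10.2 and 8.88 on GSF, without overlap (exact p = 0.1, 0.267 adjusted). Cyp4g1 to Baldspot ran from 57.4 to 67.6 on HF and from 42.4 to 49.8 on GSF, also without overlap (exact p = 0.1, 0.267 adjusted). The ratio of bond to Baldspot also did not overlap, at 0.616 ± 0.0160 on HF and 0.565 ± 0.0216 on GSF (SD, n = 3, exact p = 0.1, 0.267 adjusted).

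Pathway lists held the genes that feed and complete the members' reactions, further genes of these enzyme families, and 7 regulator genes. Of their 55 tested genes, 14 (25.5%) fell while 0 rose, against 3.14% and 2.0% of all genes. The lists were chosen with earlier results of these data known, so this contrast with all genes is a description only. The median log2 fold change of the 55 was -0.15. The GSF libraries lay below those of HF in 25 of them and above in 3, against 12.9% and 12.3% of all genes. In the fit with the replicate block, 16 were lower and 1 was higher, against 6.52% and 6.80% of all genes. The 55 and the 25 each count CG10096 and CG10097, which hold the same counts, as separate genes. Leaving out a library cut the 14 to 2, 5 and 8 for HF replicates 1 to 3 and to 1, 4 and 8 for GSF replicates 1 to 3, while 68 to 296 of all genes were lower. Of the 14, 1 gene (AcCoAS) was called in each of the 6 fits.

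Of 6 tested genes that supply the acyl chain, 4 fell: AcCoAS, which makes acetyl-CoA from acetate, by 0.61 on the log2 scale (adjusted p = 0.0102), the fatty acid synthase gene FASN1 by 0.57 (adjusted p = 0.0141), the ATP citrate lyase gene ATPCL by 0.54 (adjusted p = 0.0172) and the acetyl-CoA carboxylase gene ACC by 0.44 (adjusted p = 0.0159). Among all genes tested, 3.14% fell and 2.0% rose. FASN1 had 2258, 2403 and 2063 CPM on HF and 1397, 1536 and 1604 CPM on GSF, without overlap. The ratio of Desat1 to FASN1 was between 0.957 and 1.17 on HF and between 1.09 and 1.21 on GSF, and these overlapped (exact permutation p = 0.2, 0.4 adjusted over the 8 ratios). The oenocyte fatty acid synthase genes FASN2 and FASN3 had log2 fold changes of -0.21 and 0.13 (adjusted p = 0.227 and 0.414). They lay on opposite sides, with every GSF library below HF for FASN2 and above HF for FASN3, the latter by a margin of 269.2 against 269.3 CPM.

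Of 6 genes that complete an elongation round or pass electrons to these enzymes, 3 fell, and in all 6 every GSF library lay below every HF library. The same shares over all genes tested were 3.14% and 12.9%. The ketoacyl reductase gene spidey fell by 0.54 on the log2 scale (adjusted p = 0.0301), the dehydratase gene Hacd1 by 0.52 (adjusted p = 0.0148) and the enoyl reductase gene Sc2 by 0.37 (adjusted p = 0.0258). Hacd1 had 162, 158 and 180 CPM on HF and 117, 108 and 124 CPM on GSF. Cpr, the reductase that passes electrons to cytochromes P450 such as CYP4G1, had a log2 fold change of -0.30 (adjusted p = 0.0861) and was called lower with the block (adjusted p = 0.0302). The second dehydratase gene Hacd2 had a log2 fold change of -0.12 (adjusted p = 0.460), and Cyt-b5, the electron donor of desaturases, one of -0.15 (adjusted p = 0.280). The ratio of Cyp4g1 to Cpr was 9.79 ± 0.712 on HF and 9.39 ± 0.936 on GSF (SD, n = 3), with overlap (exact permutation p = 0.6, 0.8 adjusted over the 8 ratios).

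Among the further elongase genes, 4 of 14 tested fell and 0 rose, against 3.14% and 2.0% of all genes. These were CG16904 (by 0.68 on the log2 scale, adjusted p = 0.0291), CG30008 (by 0.55, adjusted p = 0.0264), CG6660 (by 0.55, adjusted p = 0.0196) and CG9458 (by 0.39, adjusted p = 0.0484). CG30008, the most abundant of them with 442 RPKM, had 487, 484 and 549 CPM on HF and 299, 364 and 374 CPM on GSF. The second most abundant further gene past the threshold, CG16904, had 238 RPKM. CG31523, with 144 RPKM, had a log2 fold change of 0.03 (adjusted p = 0.888).

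Of 5 further desaturase genes tested, 1 fell, where 3.14% of all genes did. CG15531 fell by 0.53 on the log2 scale (standard error 0.07, adjusted p = 0.0101), from 152, 148 and 160 CPM on HF to 104, 102 and 112 CPM on GSF. The other 4 had positive log2 fold changes, and CG9743 with 0.38 lay above HF in every GSF library without being called (adjusted p = 0.145). The sphingolipid desaturase gene ifc had a log2 fold change of 0.22 (adjusted p = 0.423).

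Fatty acyl-CoA reductases make the alcohols and aldehydes that precede hydrocarbons and waxes, and 2 of 16 tested fell, against 3.14% of all genes. FarO, which is expressed in oenocytes, fell by 0.60 on the log2 scale (adjusted p = 0.0141), from 50.5, 41.4 and 46.1 CPM to 32.7, 29.0 and 29.3 CPM. CG4020 fell by 0.38 (adjusted p = 0.0461). Sgp, the most abundant of the list with 99.2 RPKM, had a log2 fold change of -0.64 (adjusted p = 0.172) and was called with the block (adjusted p = 0.0106). CG10096 and CG10097 had identical counts in every library, so the deposited counts do not part them. None of 7 regulator genes tested was called, though S1P, a protease that activates SREBP, was called as higher with the block (log2 fold change 0.27, adjusted p = 0.0905 without the block and 0.0486 with it). SREBP itself, the lipid-responsive transcription factor, had a log2 fold change of -0.06 (adjusted p = 0.811) and Hnf4 one of -0.03 (adjusted p = 0.874).

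**Figure D4:**
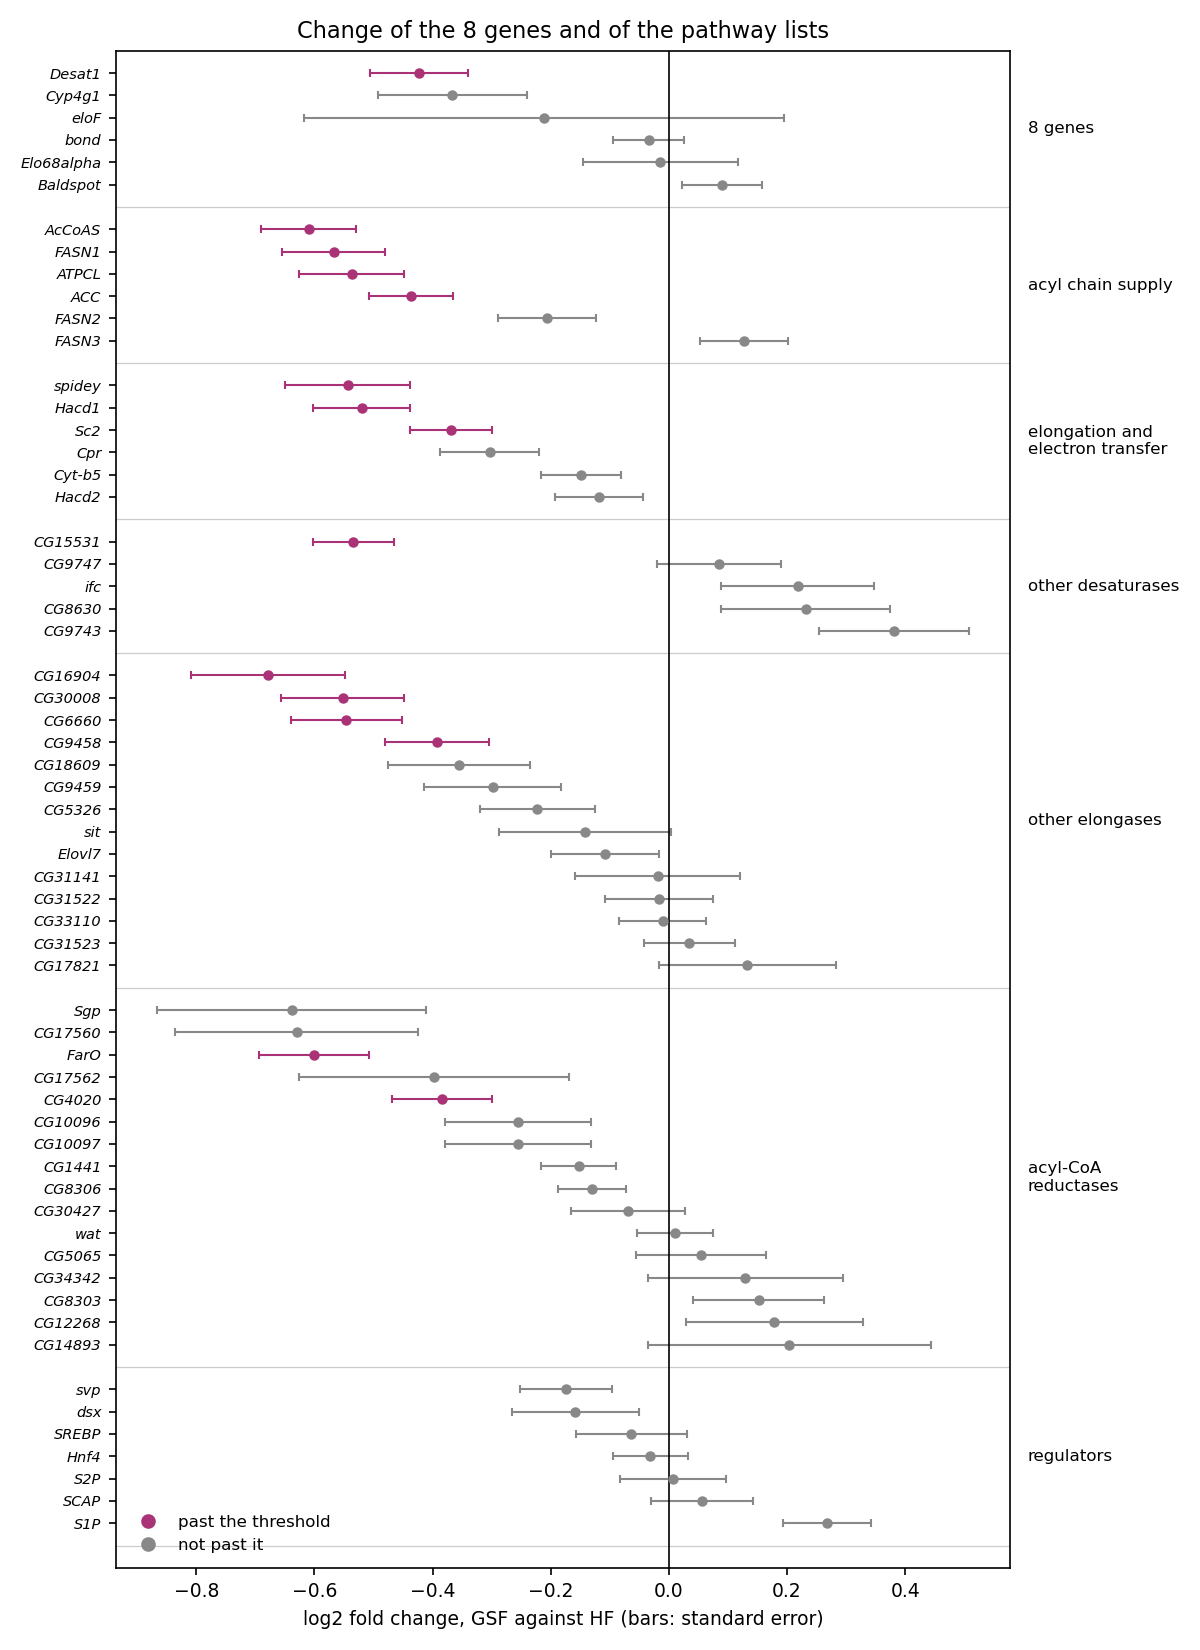
Log2 fold change on GSF against HF for the tested genes among the 8 and the pathway lists, except Cyp4g15. Bars are the standard error, and genes past the threshold are in colour. Cyp4g15, which is counted among the 55, had a log2 fold change of -0.08 (adjusted p = 0.652). Desat1 (-0.42) is the member past the threshold, and 14 of the 55 list genes are past it, all on the lower side.

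In whole flies, fewer cells of a type and less RNA per cell cannot be told apart. The summed level of 7 oenocyte markers was between 1827 and 2056 CPM on HF and between 1497 and 1720 CPM on GSF. Of these 7 genes, which the pathway lists also hold, 2 (CG16904 and FarO) were past the threshold as lower and 0 as higher, and none was at 0 in any library. Past the same threshold, 3.14% of all genes were lower and 2.0% higher. The marker sum includes CG10097, whose counts the deposited data do not part from those of CG10096. Cyp4g1 relative to this sum was 5.63 ± 0.499 on HF and 5.31 ± 0.335 on GSF (SD, n = 3), with overlap (exact permutation p = 0.4, 0.64 adjusted over the 8 ratios). The part of oenocyte number or activity in the Cyp4g1 and Desat1 values was not tested.

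Beside each marker count that follows, 3.14% of all genes were lower and 2.0% higher past the threshold. Every GSF library lay below HF in 12.9% of all genes and above it in 12.3%. Of 5 markers of the ejaculatory bulb and duct, 2 were lower past the threshold, Dup99B and Est-6. The summed level of the 5 ran from 4883 to 5727 CPM on HF and from 4260 to 5540 CPM on GSF. The bulb gene Ebp had 2424, 2491 and 3213 CPM on HF and 3150, 2656 and 2209 CPM on GSF, and was lowest in the library where Elo68alpha was lowest. The ratio of Elo68alpha to Ebp ran from 0.0128 to 0.0160 in HF libraries and from 0.0131 to 0.0159 in GSF libraries. Of 5 testis markers, 0 were past the threshold, and their summed level was between 435 and 607 CPM on HF and between 500 and 597 CPM on GSF, beside the even level of bond. Of 5 accessory gland markers, 0 were past the threshold, with sums from 740 to 1076 CPM on HF and from 710 to 796 CPM on GSF. Of these, SP (log2 fold change -0.45) and Acp95EF (-0.34) lay below HF in every GSF library and were called lower with the block (adjusted p = 0.0251 and 0.0400). Of 5 fat body markers, 1 was lower past the threshold (ppl), with sums from 3556 to 3764 CPM on HF and from 3256 to 3848 CPM on GSF. The storage protein gene Lsp2 had 229, 359 and 603 CPM on HF and 16.9, 15.3 and 110 CPM on GSF. Its log2 fold change of -3.07 (adjusted p = 0.0765) was called with the block (adjusted p = 0.00526). The lipophorin gene apolpp had a log2 fold change of 0.30 (adjusted p = 0.226). None of 5 midgut markers was past it, with sums from 86.5 to 116 CPM on HF and from 82.0 to 99.9 CPM on GSF. Here mex1 (log2 fold change 0.33, adjusted p = 0.0668) lay above HF in every GSF library and was called higher with the block (adjusted p = 0.0263), while epsilonTry had a log2 fold change of -1.05 (adjusted p = 0.239). The part of these tissues in the members' values was not tested.

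The genes whose log2 CPM followed a member most closely over the 6 libraries are given as a description, since with 6 points high correlations are common. For Desat1 these were CG43272 (Pearson r = 0.997) and the cytochrome b5-related gene Cyt-b5-r (r = 0.996), and 156 genes had an r above 0.95. For Cyp4g1 they were CG6839 (r = 0.999) and l(3)neo43 (r = 0.995), with 44 genes above 0.95. For bond and Baldspot the closest genes were CG18469 (r = 0.993) and His2B:CG33906 (r = 0.990), followed by CheB38c (r = 0.993) and CG46321 (r = 0.987). For Elo68alpha they were lncRNA:CR45681 (r = 0.967) and CapaR (r = 0.957), and for eloF Eps-15 (r = 0.989) and CG3618 (r = 0.971). The points share the diet and the depth of each library, and no other member was among these genes.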

How the data were processed

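Whole-fly RNA of 3 HF and 3 GSF libraries was analysed. Per the methods of the study, the authors trimmed paired-end reads with Trimmomatic, aligned to BDGP6 using HISAT2 (version 2.1.0), handled alignments using SAMtools (version 1.8) and assigned reads to genes using Rsubread. Values deposited by the authors are raw counts per gene, not normalized. A deposited table of the authors' own comparison (log2 fold change, log2 CPM, p-value and FDR) was used for symbols only. Coordinates and exon lengths are from the Ensembl annotation of BDGP6.54, whose release can differ from that used for counting.

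Differences were tested in edgeR 4.0.16 under R 4.3.3 (TMM, quasi-likelihood test, Benjamini-Hochberg adjustment over 13373 genes) with DESeq2 1.42.0, other scalings and filters and left-out libraries as alternatives. The standard error was derived from each gene's F statistic. RPKM is TMM-scaled CPM per kilobase of merged exons. The test was tested on simulated data. All members and lists were chosen with earlier results of these data known, and 95 of 96 list entries matched a gene of the files. Genes named from the pathway lists are those past the threshold and otherwise up to the 3 most abundant of a list. Fad2, FASN2, FASN3, Hacd2, S1P, the single marker genes, the genes overlapping Desat2 and bond, and the ratios were chosen after their values were seen. FASN3 had no exon length.

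Libraries with the same replicate number deviated from their diet's mean together across genes (correlations of 0.186, 0.243 and 0.471, and between -0.307 and 0.114 for other pairs). The main test used diet alone. Only the fit with the replicate block took the numbers as pairing the libraries, on this evidence alone, since no source says what a number shares. The genes behind these correlations come from the same libraries and are not further replicates, so calls made with the block rest on a pairing that was not established.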

Additional observations from a re-analysis of the deposited data

How the results depend on the processing

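With 1 library left out, 0 members were past the threshold in each fit, in place of 1, and the log2 fold change of Desat1 ran from -0.48 to -0.37. That of Elo68alpha ran from -0.094 to 0.13 (0.03 without HF replicate 2, 0.04 without HF replicate 3 and 0.13 without GSF replicate 3), and that of eloF from -0.46 to 0.35. These fits hold 5 libraries in place of 6, and fewer genes passed overall. Between 1 and 8 of the pathway genes were lower in them, in place of 14. With the replicate block, 2 members and 16 pathway genes were lower and 1 pathway gene was higher, and Cyp4g1 passed with a log2 fold change of -0.37; the block changed no other call of a member. At an unadjusted p under 0.05, 2 members were lower and 2 pathway genes higher. The other scalings, tests and filters, and leaving out ribosomal RNA genes, kept the direction and the call of each member they tested. Desat2 and Elo68beta, with 26 to 59 counts a library, are limited by these low counts and by 3 libraries per diet.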
